A study of Mus musculus with 12 samples.

Results

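The interaction of busulfan and L.J. was measured in mouse spleen as a difference of differences. For every gene, the difference that L.J. made in busulfan-treated mice (busulfan + L.J. minus busulfan) was set against the difference that L.J. made in mice without busulfan (L.J. minus control), on the log2(FPKM + 1) scale, where FPKM is the number of fragments of a gene divided by transcript length and by library size. A value below 0 means that the L.J. difference was lower with busulfan than without it. A value of 0 means that the effects of busulfan and L.J. added up on this scale. Genes were taken up when their mean reached 1 FPKM in any of the 4 groups, which left 13138 of the 21004 genes in the table. All 12 libraries of the series enter the contrast.

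The mice were of the ICR strain and 8 weeks old, and the tissue was spleen. The 4 groups of 3 libraries each were busulfan with L.J. at 10 mg/kg, busulfan, L.J. at 10 mg/kg, and control. What L.J. stands for is not said in the labels, nor are the dose of busulfan and the timing of treatment and collection. The title of the series asks whether L.J. counters harm done to the spleen by busulfan. The design text also mentions FMT, which it does not spell out and which no sample label carries, so groups are taken as labelled. Whether replicate libraries are from different mice is not stated, so the p-values speak of the spread between these libraries, which may be technical.

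Busulfan is an alkylating agent that crosslinks DNA and kills dividing blood progenitors, and it serves to clear the marrow ahead of a stem cell transplant. The mouse spleen is both a filter for blood and a lymphoid organ, and it also makes blood cells, above all when the marrow is damaged. Its red pulp holds macrophages, plasma cells, granulocytes and erythroid cells around venous sinuses lined by endothelium, and its white pulp holds B and T cells. Cells that export much protein, such as plasma cells, depend on the chaperones, signal peptidase and degradation machinery of the endoplasmic reticulum (ER), whose genes are induced together in the unfolded protein response through the factors ATF6 and XBP1.

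No gene passed the threshold for the interaction. With limma-trend fitted to all 13138 genes, 0 genes (0%) had an adjusted p below 0.05, while 1506 genes (11.5%) had an unadjusted p below 0.05, 809 with a positive value (6.16%) and 697 with a negative value (5.31%). A per-gene linear model without moderation also called 0 genes, with 1500 at an unadjusted p below 0.05. The smallest adjusted p was 0.0928, and 3 genes stood below 0.1, namely Slpi, Manf and Sec11c. The count depended on how the libraries were used. Without busulfan replicate 3 the same model called 508 genes, 160 higher (1.22%) and 348 lower (2.65%). With all libraries kept and weighted by their quality it called 220, 107 higher and 113 lower. The lowest weights were those of busulfan replicates 1 (0.23) and 3 (0.377). Each of the other 11 libraries left out in turn gave 0 calls. Values below are therefore descriptions of the interaction with its error, and none of them passed the test over all genes.

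Across all tested genes the median interaction was 0.02, and the values at the 10th and 90th percentiles were -0.42 and 0.44, beside a median standard error of 0.22. Of all tested genes, 53.4% had a positive value and 46.6% a negative one. The simple difference of L.J. with busulfan was called for 218 genes (1.66%), 142 higher (1.08%) and 76 lower (0.578%), whereas that of L.J. without busulfan was called for 4 genes (0.0304%), 1 higher (0.00761%) and 3 lower (0.0228%). The numbers called on either side do not show that the differences themselves differ, which is what the interaction tests.

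Among the 1506 genes with an unadjusted interaction p below 0.05, the L.J. difference had opposite signs with and without busulfan in 1232 genes (81.8%), against 40.9% of all tested genes. All 1506 had the same sign of interaction on the linear FPKM scale, as did 97.7% of all tested genes. The rule for opposite signs without any overlap of libraries was met in 117 genes (0.891%) that were lower with L.J. in busulfan-treated mice and higher with L.J. in mice without busulfan, and in 66 genes (0.502%) with the reverse pattern. The group whose mean lay farthest from the mean of the other 3 was the busulfan group in 52.3% of the positive genes and in 55.8% of the negative genes, against 29.6% of all tested genes. Over the whole table, all busulfan + L.J. libraries lay above all others in 371 genes (2.82%) and below all others in 322 (2.45%). All busulfan libraries lay above all others in 124 genes (0.944%) and below all others in 217 (1.65%), and all control libraries above all others in 163 (1.24%). These shares use the same values that gave the p, so they describe the shape and are no further evidence.

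**Figure D1:**
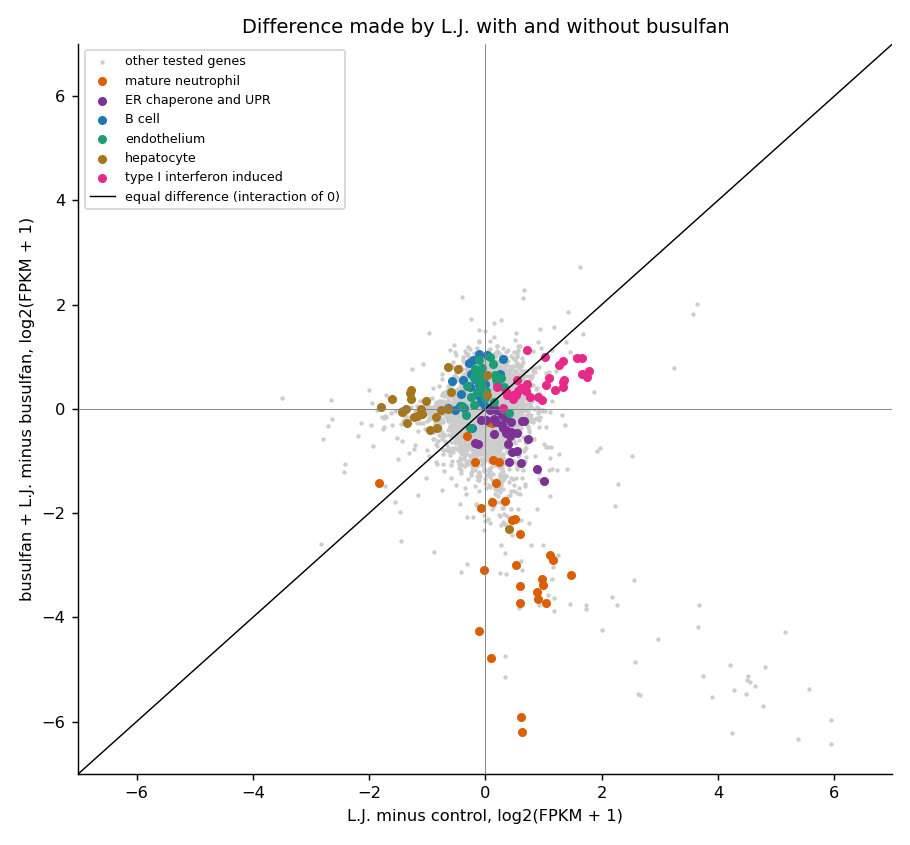
Difference made by L.J. on the log2(FPKM + 1) scale in busulfan-treated mice (vertical) and in mice without busulfan (horizontal), 1 point per tested gene, 3 libraries per group, with 2 genes outside the axes. Genes below the diagonal line have a negative interaction. Most mature neutrophil and ER genes lie below the line, most endothelial and B cell genes above it, and type I interferon genes mostly to the right of 0 and above 0.

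The libraries differed in RNA of pancreatic acinar cells, which make digestive enzymes and lie next to the spleen in the mouse. The 36 acinar genes of the list took 0.00358% to 0.0427% of the FPKM sum of busulfan + L.J. libraries, 0.0472% to 11.1% of busulfan libraries, 0.0207% to 1.29% of L.J. libraries and 0.0033% to 0.00365% of control libraries. The highest shares were 11.1% in busulfan replicate 1, 1.29% in L.J. replicate 3 and 1.02% in busulfan replicate 2. Amy2a5, pancreatic amylase, stood at 0.73, 0.03 and 32.2 FPKM with busulfan and L.J., at 19029.7, 1484 and 55.8 FPKM with busulfan, and at 167, 19.2 and 1177 FPKM with L.J., and was listed at 0 in control replicates 1 and 2 and at 0.25 FPKM in control replicate 3, with the reservation that reads of amylase copies may be shared. Of the 36 acinar genes, 19 to 22 were listed at 0 in each control library. All 34 acinar genes that could be tested had a negative interaction, 30 of them at an unadjusted p below 0.05. The median was -8.99, a size that depends on the pseudocount because of the zeros. Genes near 0 in controls pass the filter through the groups where they are high. Where these are the busulfan and L.J. groups, a negative value is favoured, so the counts are not evidence of a direction. The spleen markers Cd79a, Cd3e, Spic, Hba-a1 and Stab2 were present in all 12 libraries. In whole tissue, fewer cells of a type and less RNA per cell cannot be told apart. The list medians below are therefore also given without the 3 libraries of highest acinar level, namely busulfan replicates 1 and 2 and L.J. replicate 3, where the busulfan group is a single library assumed to vary like the others, and with the acinar level as a covariate. That covariate is the mean log2(FPKM + 1) of the tested acinar genes. It averaged 1.07 with busulfan and L.J., 5.64 with busulfan, 3.89 with L.J. and 0.35 in controls. The covariate thus differed between groups along the contrast itself, so its fit separates the acinar level from the interaction only in part. Both alternatives were chosen after seeing the data. The first called 1 gene, Stfa2, lower, with 1180 (8.98%) at an unadjusted p below 0.05, and the second called 0 genes, with 660 (5.02%).

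The 24 genes with the smallest p comprised 14 with a positive and 10 with a negative interaction, at limma adjusted p between 0.0928 and 0.192. In 21 of them the L.J. difference had opposite signs with and without busulfan. L.J. in busulfan-treated mice was called for 17 of the 24, 10 higher and 7 lower, and L.J. without busulfan for 2, both lower. Busulfan without L.J. was called for 4, 2 higher and 2 lower, and busulfan with L.J. for 0. The limma fit called 0 genes for busulfan with L.J. over the whole table, with 737 (5.61%) at an unadjusted p below 0.05, and for busulfan without L.J. it called 4 (0.0304%), 2 higher and 2 lower (0.0152% each). The busulfan group was the farthest from the other groups in 16 of the 24, the busulfan + L.J. group in 5 and the control group in 3. Over all tested genes these shares were 29.6%, 29.5% and 30.3%. All 24 kept their sign without the 3 libraries of highest acinar level, at 0.704 to 1.18 times the value over all 12 libraries. With the acinar covariate they also kept it, at 0.466 to 1.19 times. The 24 were picked by their p on the same libraries, so the kept signs were likely beforehand and are no further evidence.

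**Figure D2:**
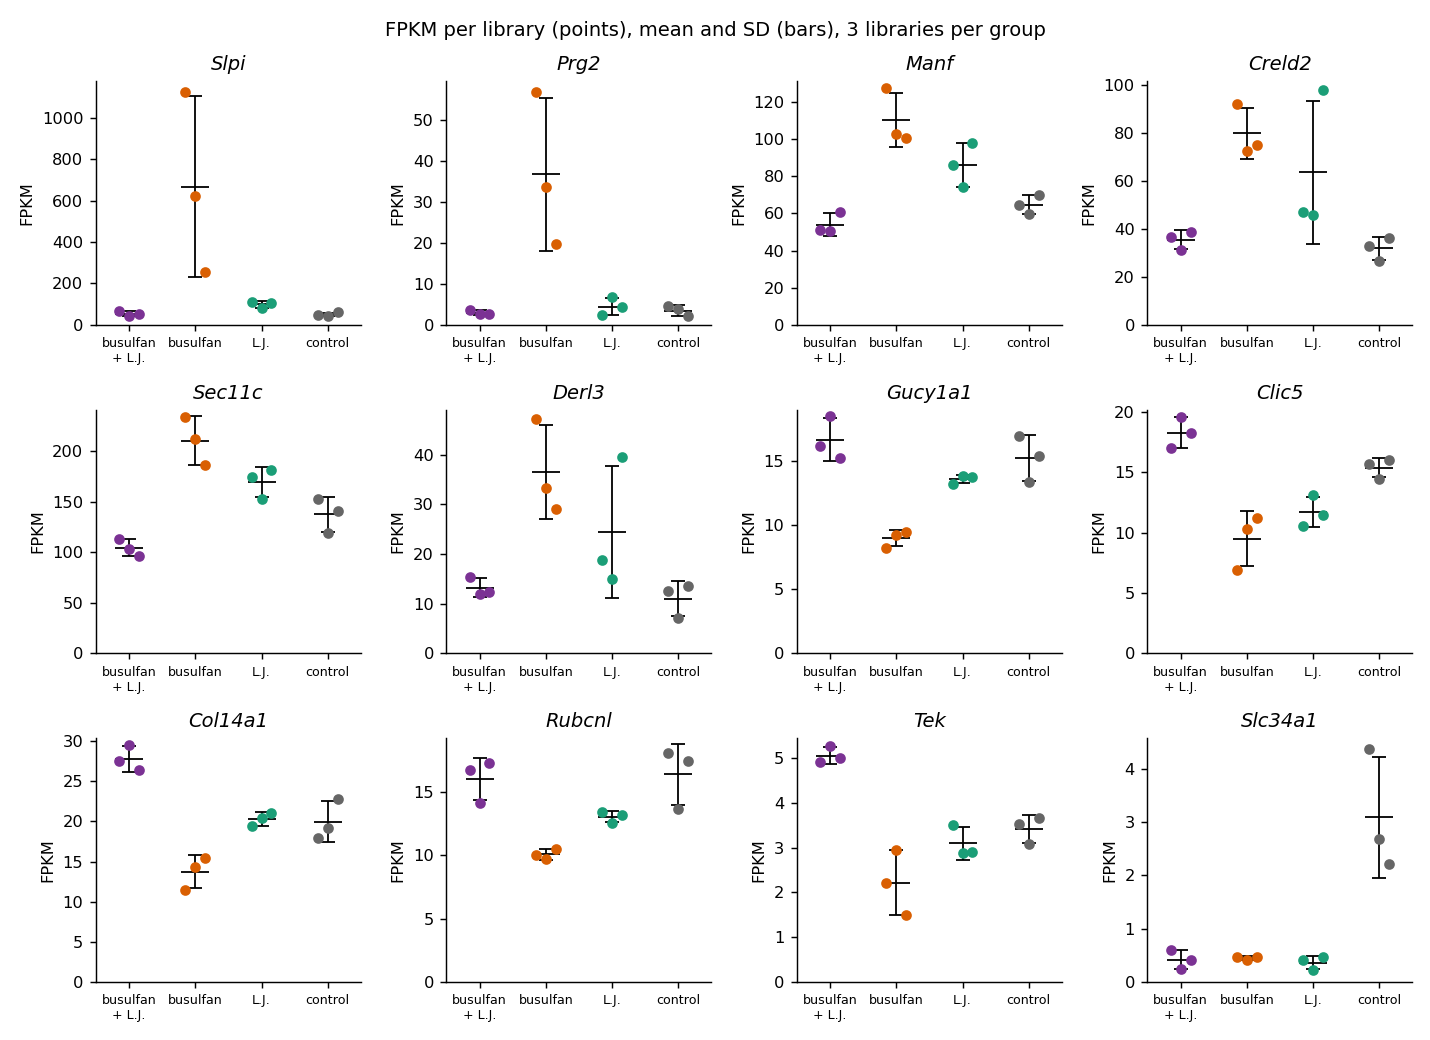
FPKM of 12 genes in each library (points, 3 per group) with the group mean and SD (bars), each panel on its own linear axis from 0. In Slpi, Prg2, Manf, Creld2 and Derl3 the busulfan group has the highest mean. In Gucy1a1, Clic5, Col14a1 and Rubcnl it has the lowest, and in Slc34a1 the control libraries alone are high.

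Genes of protein folding and export in the ER had lower values of L.J. with busulfan than without it. Of 33 tested members of the ER chaperone and unfolded protein response list, 32 had a negative interaction and 1 a positive one, 23 of the negative ones at an unadjusted p below 0.05, with a median of -0.68. In 13 of the 33 the L.J. libraries were lower with busulfan and higher without it with no overlap, beside 0.891% of all tested genes. The median L.J. difference of the list was -0.40 with busulfan and 0.35 without it, and L.J. in busulfan-treated mice was called lower for 3 members, beside 0.578% of all tested genes. The busulfan group was the farthest from the others in 17 of the 33 and the control group in 8, beside 29.6% and 30.3% of all tested genes. The list score, its mean log2(FPKM + 1), was 5.47 with busulfan and L.J., 5.90 with busulfan, 5.75 with L.J. and 5.42 in controls.

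Several of these genes carry, within 250 bases before and 50 bases after their start, the ER stress response element, which is bound by ATF6 and XBP1 together with NF-Y. The element was searched as CCAAT followed by 9 bases of any kind and CCACG, on both strands. The windows of 4 ER genes named below are shown because they share this element; capitals mark the match, which reads in reverse complement where it lies on the opposite strand. Sequences are from RefSeq, build GRCm38.p6, 5′ to 3′ on the strand of the gene, at chr15:88819396-88819695 (plus strand) for Creld2, chr10:75893148-75893447 (plus strand) for Derl3, chr10:86705395-86705694 (minus strand) for Hsp90b1 and chr2:34771840-34772139 (plus strand) for Hspa5.
Creld2: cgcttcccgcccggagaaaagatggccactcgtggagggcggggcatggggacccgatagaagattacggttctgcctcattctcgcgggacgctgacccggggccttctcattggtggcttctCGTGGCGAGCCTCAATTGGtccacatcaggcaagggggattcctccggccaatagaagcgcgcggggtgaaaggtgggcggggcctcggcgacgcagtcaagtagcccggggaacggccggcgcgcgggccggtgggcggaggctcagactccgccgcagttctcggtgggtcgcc
Derl3: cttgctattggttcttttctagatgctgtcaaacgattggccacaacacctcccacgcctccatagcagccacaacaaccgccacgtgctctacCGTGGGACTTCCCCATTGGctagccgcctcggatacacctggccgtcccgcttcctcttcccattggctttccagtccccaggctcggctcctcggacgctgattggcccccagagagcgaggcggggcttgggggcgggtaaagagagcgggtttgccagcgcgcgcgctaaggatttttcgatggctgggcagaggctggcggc
Hsp90b1: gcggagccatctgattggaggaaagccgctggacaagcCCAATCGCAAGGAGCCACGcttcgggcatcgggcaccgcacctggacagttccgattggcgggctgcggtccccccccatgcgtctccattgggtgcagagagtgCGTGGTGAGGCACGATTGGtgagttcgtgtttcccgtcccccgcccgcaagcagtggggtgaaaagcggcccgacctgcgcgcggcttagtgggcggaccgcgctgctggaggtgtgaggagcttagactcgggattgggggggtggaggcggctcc
Hspa5: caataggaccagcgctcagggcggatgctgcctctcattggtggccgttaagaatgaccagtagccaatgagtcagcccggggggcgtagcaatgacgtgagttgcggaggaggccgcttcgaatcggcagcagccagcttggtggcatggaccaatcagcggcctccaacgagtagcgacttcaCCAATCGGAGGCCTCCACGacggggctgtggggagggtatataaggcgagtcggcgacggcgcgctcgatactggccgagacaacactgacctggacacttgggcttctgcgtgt

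A promoter window was at hand for 10466 tested genes, and 20 of them (0.191%) held the element. Of the 33 ER genes, 28 had a window and 10 of these (35.7%) held it, namely Calr, Canx, Creld2, Derl3, Dnajc3, Ero1lb, Hsp90b1, Hspa5, Pdia6 and Syvn1. Their interactions ran from -2.38 to -0.13. The 10 genes with the element outside the list had values between -0.64 and 0.68. Among them is Alg12, at -0.04, whose window overlaps that of Creld2 and holds the same match, so this site is counted for both genes. The list was drawn up from genes known to answer ER stress, so its share of elements is not independent of how it was chosen, and a match of letters is not a bound site.

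Manf, an ER protein that is made and secreted under ER stress, had the second smallest p and lies at chr9:106888753-106891938. Manf stood at 50.8, 50.3 and 60.9 FPKM with busulfan and L.J., 127, 103 and 101 FPKM with busulfan, 85.98, 74.4 and 97.99 FPKM with L.J., and 64.7, 59.6 and 69.7 FPKM in controls. All busulfan + L.J. libraries were lower than all busulfan libraries, and all L.J. libraries were higher than all control libraries. The interaction was -1.42 (SE 0.19, 95% interval -1.84 to -0.99, limma adjusted p = 0.0928). In busulfan-treated mice Manf fell with L.J., by 1.01 on the log2 scale (limma adjusted p = 0.0164), and without busulfan the L.J. difference was 0.40 (limma adjusted p = 0.548). The Manf interaction was -1.20 without the 3 libraries of highest acinar level and -0.90 with the acinar covariate.

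Creld2, a disulphide isomerase-like ER protein with the element shown above, lies at chr15:88819646-88826681 and stood at 36.4, 31.1 and 38.8 FPKM with busulfan and L.J., 91.9, 72.3 and 75.1 FPKM with busulfan, 46.9, 45.9 and 98.03 FPKM with L.J., and 32.98, 26.7 and 36.2 FPKM in controls. Its busulfan libraries were all above its busulfan + L.J. libraries and its L.J. libraries all above its controls, and L.J. replicate 3 was the highest library. The interaction of Creld2 was -2.04 (SE 0.36, 95% interval -2.81 to -1.26, limma adjusted p = 0.129). Derl3, which helps to draw misfolded proteins out of the ER, followed the same order with 15.4, 11.9 and 12.4 FPKM with busulfan and L.J., 47.1, 33.2 and 29.1 FPKM with busulfan, 18.8, 14.9 and 39.6 FPKM with L.J., and 12.5, 7.05 and 13.6 FPKM in controls. The interaction of Derl3 was -2.38 (SE 0.47, 95% interval -3.40 to -1.36, limma adjusted p = 0.186). Again L.J. replicate 3, one of the 3 libraries of highest acinar level, was close to the busulfan libraries, and the part of the acinar level in these results was not tested. Without the 3 libraries the values were -1.60 for Creld2 and -1.70 for Derl3.

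Hsp90b1 (GRP94), the ER form of the HSP90 chaperone, whose window holds 2 elements, stood at 378, 349 and 366 FPKM with busulfan and L.J., 594, 578 and 771 FPKM with busulfan, 495, 478 and 774 FPKM with L.J., and 427, 346 and 396 FPKM in controls. The highest values were in L.J. replicate 3 and in busulfan replicate 3, the busulfan library of lowest acinar share. Its interaction was -1.36 (SE 0.26, 95% interval -1.94 to -0.78, limma adjusted p = 0.182), and it was -1.41 without the 3 libraries and -1.29 with the acinar covariate. Hspa5 (BiP), the main HSP70 chaperone of the ER and the sensor partner of the unfolded protein response, stood at 276, 264 and 287 FPKM with busulfan and L.J., 354, 351 and 441 FPKM with busulfan, 318, 321 and 430.3 FPKM with L.J., and 279.7, 270.3 and 279 FPKM in controls. The interaction of Hspa5 was -0.81 (SE 0.20, 95% interval -1.25 to -0.38, limma adjusted p = 0.199), -0.89 without the 3 libraries and -0.81 with the covariate. Xbp1, the response factor itself, had -1.65 (SE 0.40) over all libraries but -0.80 without the 3 libraries and -0.42 with the covariate. Calr, the lectin chaperone calreticulin, had -0.49 (SE 0.19).

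Slc35b1, which carries ATP into the ER, and Sec11c, a catalytic subunit of signal peptidase, were also among the 24. Sec11c stood at 113, 103 and 96.3 FPKM with busulfan and L.J., 234, 212 and 186 FPKM with busulfan, 175, 152 and 181 FPKM with L.J., and 152, 119 and 141 FPKM in controls. Here the busulfan + L.J. libraries were below all other libraries. The interaction of Sec11c was -1.31 (SE 0.19, 95% interval -1.72 to -0.89, limma adjusted p = 0.0963), and in busulfan-treated mice it fell with L.J., by 1.00 on the log2 scale (limma adjusted p = 0.0164). Slc35b1 averaged 30.4 ± 2.5 FPKM with busulfan and L.J., 45.1 ± 4.66 FPKM with busulfan, 39.2 ± 3.87 FPKM with L.J. and 31.5 ± 1.29 FPKM in controls (mean ± SD, n = 3 each), with an interaction of -0.86 (SE 0.15), and it too fell with L.J. in busulfan-treated mice, by 0.55 (limma adjusted p = 0.0396). Without the 3 libraries of highest acinar level, 30 of the 33 ER genes had a negative value, 19 genes had an unadjusted p below 0.05 and the median was -0.59. With the acinar covariate 27 were negative, 5 were at an unadjusted p below 0.05 and the median was -0.41.

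Plasma cell genes, of which 4 are also on the ER list (Creld2, Derl3, Edem1 and Xbp1), had a negative interaction in 17 of 20 tested members and a positive one in 3, with 13 and 1 at an unadjusted p below 0.05 and a median of -1.19. L.J. in busulfan-treated mice was called lower for 2 (0.578% of all tested genes). Jchain, which joins IgM and IgA into polymers, stood at 399, 317 and 321 FPKM with busulfan and L.J., 779.6, 722 and 509 FPKM with busulfan, 399, 378 and 1125 FPKM with L.J., and 353, 188 and 255 FPKM in controls. The control mean was the lowest, and L.J. replicate 3 was the highest library. Its interaction was -2.05 (SE 0.53, 95% interval -3.22 to -0.87, limma adjusted p = 0.213). Bhlha15 (MIST1), a factor of secretory cells that plasma cells and pancreatic acinar cells both express, stood at 2.58, 2.3 and 2.6 FPKM with busulfan and L.J., 12.3, 5.79 and 6.67 FPKM with busulfan, 4.32, 3.15 and 8.3 FPKM with L.J., and 2.41, 1.38 and 2.67 FPKM in controls. The interaction of Bhlha15 was -2.27 (SE 0.43, 95% interval -3.23 to -1.32, limma adjusted p = 0.175), and -1.74 without the 3 libraries. The plasma cell median was -0.80 without the 3 libraries and -0.43 with the covariate. Germinal centre B cell genes had a negative value in 10 of 11 tested members, 4 of them at an unadjusted p below 0.05, with a median of -0.62. The germinal centre median was -0.93 without the 3 libraries and -1.0 with the covariate.

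Granulocyte genes had the lowest values among the blood cell lists. Of 30 tested mature neutrophil genes, 29 had a negative interaction and 1 a positive one, 23 of the negative ones at an unadjusted p below 0.05, with a median of -3.29. In 8 of them the libraries crossed without overlap, lower with L.J. in busulfan-treated mice and higher with L.J. alone, beside 0.891% of all tested genes. The busulfan group was the farthest from the others in 29 of 30, beside 29.6% of all tested genes. The neutrophil score was 7.51, 6.71 and 4.12 in busulfan libraries 1, 2 and 3, against 3.14 to 4.11 in the other 9 libraries. L.J. in busulfan-treated mice was called lower for 6 of the 30, beside 0.578% of all tested genes.

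Slpi, an inhibitor of neutrophil elastase made by granulocytes and epithelia, had the smallest p of all genes and lies at chr2:164354070-164356507. Slpi stood at 67.8, 43.1 and 50.9 FPKM with busulfan and L.J., 1123, 624 and 253 FPKM with busulfan, 112, 81.1 and 104 FPKM with L.J., and 48.2, 40.9 and 59.9 FPKM in controls. Each busulfan library was above all 9 other libraries, and the L.J. libraries were above all controls. The interaction of Slpi was -4.37 (SE 0.59, 95% interval -5.66 to -3.07, limma adjusted p = 0.0928). Busulfan without L.J. raised Slpi by 3.49 on the log2 scale (limma adjusted p = 0.0248), and in busulfan-treated mice it fell with L.J., by 3.38 (limma adjusted p = 0.0135). The L.J. difference without busulfan was 0.98 (limma adjusted p = 0.548). The Slpi interaction was -3.18 without the 3 libraries of highest acinar level and -2.58 with the covariate.

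Prg2, the major basic protein of eosinophil granules, lies at chr2:84980461-84983632 and stood at 3.68, 2.66 and 2.54 FPKM with busulfan and L.J., 56.9, 33.8 and 19.7 FPKM with busulfan, 2.38, 6.72 and 4.31 FPKM with L.J., and 4.64, 3.78 and 2.06 FPKM in controls. Only its busulfan libraries were high, and the other 3 groups overlapped. The interaction of Prg2 was -3.39 (SE 0.54, 95% interval -4.57 to -2.21, limma adjusted p = 0.129), and it was -2.63 without the 3 libraries. Busulfan without L.J. raised Prg2 by 2.99 (limma adjusted p = 0.0285), and in busulfan-treated mice it fell with L.J., by 3.14 (limma adjusted p = 0.0135). Of 11 tested eosinophil genes, 8 were negative and 3 positive, 7 and 1 of them at an unadjusted p below 0.05, with a median of -1.41. The eosinophil median was -0.65 without the 3 libraries, with 4 genes at an unadjusted p below 0.05, and -0.29 with the covariate, with 1. Epx, eosinophil peroxidase, averaged 0.37 ± 0.17 FPKM with busulfan and L.J., 4.88 ± 3.55 FPKM with busulfan, 0.46 ± 0.25 FPKM with L.J. and 0.34 ± 0.18 FPKM in controls (mean ± SD, n = 3 each). Epx and Ear6, another gene of the eosinophil list, passed the filter only through the busulfan group, which inclines them to a negative value. The eosinophil counts are therefore not evidence of a direction.

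The alarmin gene S100a8 showed how far the busulfan libraries spread, with 282, 180.2 and 98.8 FPKM with busulfan and L.J., 7700.2, 2424 and 237 FPKM with busulfan, 188, 379 and 173 FPKM with L.J., and 172, 117 and 81.6 FPKM in controls. Busulfan replicate 3 overlapped with the L.J. and busulfan + L.J. libraries, and the interaction was -4.22 (SE 1.46, 95% interval -7.49 to -0.96, limma adjusted p = 0.323). Mpo, the myeloperoxidase of early granules, stood at 19.3, 18.8 and 9.76 FPKM with busulfan and L.J., 768, 241 and 19.7 FPKM with busulfan, 29.3, 30.8 and 22.8 FPKM with L.J., and 15.5, 11.01 and 9.77 FPKM in controls, with an interaction of -4.41 (SE 1.44). Stfa2, a stefin of mouse neutrophils with near-identical neighbours that may share its reads, stood at 0.38, 0.34 and 0 FPKM with busulfan and L.J. and at 335, 159 and 6.54 FPKM with busulfan, against 1.1, 0.74 and 0.46 FPKM with L.J. and 0, 0.22 and 0.23 FPKM in controls. Stfa2, which is counted in the mature neutrophil list, also passed the filter only through the busulfan group and is inclined to a negative value. All 19 granulocyte precursor genes had a negative interaction, 11 at an unadjusted p below 0.05, with a median of -1.60.

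The granulocyte values depended on the libraries. Without busulfan replicates 1 and 2 and L.J. replicate 3 the mature neutrophil median was -1.38, with 17 genes at an unadjusted p below 0.05, and the precursor median was -0.61, with 4 of 19 genes positive. With the acinar covariate the medians were -0.96 and -0.25. Without busulfan replicate 3 they were -4.25 and -2.28, and 25 of 30 and 14 of 19 genes were called lower, beside 2.65% of all tested genes under that setting. The order of the busulfan libraries was the same in the neutrophil score and in the acinar level, with replicate 1 the highest and replicate 3 the lowest. In the L.J. libraries the order was the reverse. Their neutrophil scores were 3.81, 4.11 and 3.69 beside acinar shares of 0.201%, 0.0207% and 1.29%. In the busulfan + L.J. libraries, replicate 3 had the highest acinar share and the lowest neutrophil score. The part of the acinar level in the granulocyte values was not tested.

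**Figure D3:**
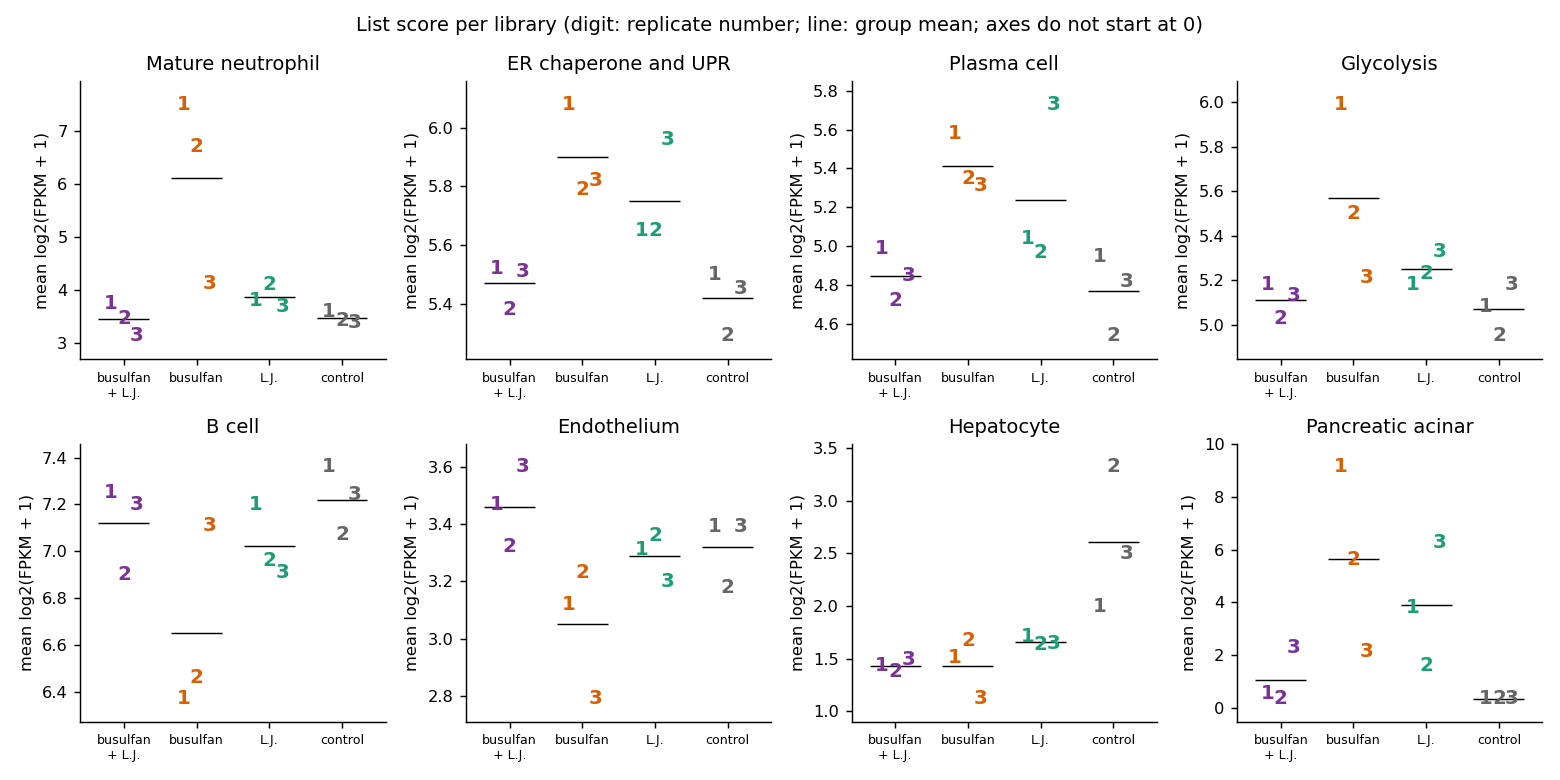
Mean log2(FPKM + 1) of 8 gene lists in each library (digits give the replicate number, lines the group mean, and axes do not start at 0). Busulfan replicates 1 and 2 stand apart in the neutrophil and B cell scores, and L.J. replicate 3 lies between them in the acinar score, while in the ER score all 3 busulfan libraries are above all busulfan + L.J. libraries.

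Glycolysis genes had a negative interaction in 19 of 20 tested members, 11 of them at an unadjusted p below 0.05, with a median of -0.70. Gapdh, which oxidises glyceraldehyde phosphate, stood at 798, 697 and 822 FPKM with busulfan and L.J., 1673, 1528 and 1312 FPKM with busulfan, 1236, 879 and 926 FPKM with L.J., and 943, 933 and 1092 FPKM in controls. Its busulfan libraries were above all others and its busulfan + L.J. libraries below all others. The interaction of Gapdh was -0.98 (SE 0.22, 95% interval -1.46 to -0.50, limma adjusted p = 0.192), and in busulfan-treated mice it fell with L.J., by 0.96 (limma adjusted p = 0.0372). Pkm, pyruvate kinase, had -1.04 (SE 0.28), and Pgk1 had -0.92 (SE 0.29). The glycolysis median was -0.26 without the 3 libraries and -0.06 with the covariate, and -0.44 without busulfan replicate 1 alone.

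Smaller negative values ran through lists of abundant housekeeping genes. Of 64 oxidative phosphorylation subunits 61 were negative, 10 at an unadjusted p below 0.05, with a median of -0.31. Of 77 cytosolic ribosomal proteins 65 were negative, 3 at an unadjusted p below 0.05, with a median of -0.17. The oxidative phosphorylation median was -0.02 without the 3 libraries, 0.11 with the covariate and -0.19 without busulfan replicate 1. The ribosomal median was 0.12 without the 3 libraries, 0.30 with the covariate and 0.01 without busulfan replicate 1, so neither list kept its direction. Mitosis genes were negative in 42 of 46, with 4 at an unadjusted p below 0.05 and a median of -0.25, and replication genes in 38 of 48, with 3 and a median of -0.14. Their medians were -0.12 and 0.01 without the 3 libraries and -0.37 and -0.13 with the covariate. With 1 library left out they ranged from -0.40 to -0.09 for mitosis and from -0.26 to -0.04 for replication, both nearest to 0 without control replicate 3. Mki67, the proliferation marker, had 0.28 (95% interval -0.72 to 1.28). Glucocorticoid response genes were negative in 16 of 17, 3 at an unadjusted p below 0.05, with a median of -0.99, which was -0.05 without the 3 libraries and 0.36 with the covariate.

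Endothelial and stromal genes had higher values of L.J. with busulfan than without it. Of 31 tested genes of sinusoidal and vascular endothelium, 27 had a positive interaction and 4 a negative one, 13 of the positive ones at an unadjusted p below 0.05, with a median of 0.47. The median L.J. difference was 0.44 with busulfan and -0.05 without it, and L.J. in busulfan-treated mice was called higher for 5, beside 1.08% of all tested genes. Of 38 collagen, laminin and stromal genes, 27 were positive and 11 negative, 10 of the positive ones at an unadjusted p below 0.05, with a median of 0.30, and 8 were called higher with L.J. in busulfan-treated mice. Of 18 smooth muscle genes 11 were positive, 4 at an unadjusted p below 0.05, with a median of 0.39, which was 0.28 without the 3 libraries, 0.40 with the covariate and 0.20 without control replicate 3.

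Gucy1a1, the alpha subunit of the nitric oxide receptor guanylate cyclase, had the smallest p among the positive genes and lies at chr3:82092427-82145946. Gucy1a1 stood at 16.1, 18.5 and 15.2 FPKM with busulfan and L.J., 8.23, 9.22 and 9.42 FPKM with busulfan, 13.2, 13.8 and 13.7 FPKM with L.J., and 16.9, 13.3 and 15.4 FPKM in controls. All busulfan libraries were below all others, and L.J. libraries overlapped with controls. The interaction of Gucy1a1 was 0.97 (SE 0.15, 95% interval 0.64 to 1.30, limma adjusted p = 0.129), and in busulfan-treated mice it rose with L.J., by 0.82 (limma adjusted p = 0.0152). The L.J. difference without busulfan was -0.15.

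Clic5, a chloride intracellular channel protein, lies at chr17:44134762-44280169 and stood at 17.1, 19.6 and 18.2 FPKM with busulfan and L.J., 6.91, 10.3 and 11.2 FPKM with busulfan, 10.6, 13.1 and 11.4 FPKM with L.J., and 15.7, 14.5 and 16.01 FPKM in controls. It crossed without overlap, higher with L.J. in busulfan-treated mice and lower with L.J. alone, as did Rubcnl, Pcdh12, Prox1, Sorbs2 and Hs3st3a1 among the 24 genes. The interaction of Clic5 was 1.27 (SE 0.21, 95% interval 0.81 to 1.74, limma adjusted p = 0.129). Pcdh12, an endothelial protocadherin, stood at 5.33, 5.96 and 6.07 FPKM with busulfan and L.J., 1.61, 3.13 and 3.03 FPKM with busulfan, 3.73, 4.18 and 3.44 FPKM with L.J., and 5.59, 4.54 and 5.56 FPKM in controls, with an interaction of 1.33 (SE 0.24, 95% interval 0.81 to 1.84, limma adjusted p = 0.129). Rubcnl, a regulator of autophagosome maturation, averaged 16.1 ± 1.67 FPKM with busulfan and L.J., 10.1 ± 0.401 FPKM with busulfan, 13.1 ± 0.46 FPKM with L.J. and 16.4 ± 2.43 FPKM in controls (mean ± SD, n = 3 each), with an interaction of 0.92 (SE 0.16).

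Tek (TIE2), the angiopoietin receptor of endothelium, stood at 4.91, 5.26 and 4.99 FPKM with busulfan and L.J., 2.2, 2.95 and 1.5 FPKM with busulfan, 3.51, 2.87 and 2.89 FPKM with L.J., and 3.52, 3.07 and 3.66 FPKM in controls. Its busulfan + L.J. libraries were above all others. The interaction of Tek was 1.05 (SE 0.21, 95% interval 0.58 to 1.52, limma adjusted p = 0.192), and 1.35 without the 3 libraries of highest acinar level. Kdr, the main VEGF receptor, had 0.93 (SE 0.20), and Stab2, the scavenger receptor of splenic sinus endothelium, had 0.92 (SE 0.20). Igfbp7, an abundant secreted IGF-binding protein of vessels, stood at 538, 468 and 530.0 FPKM with busulfan and L.J., 253, 249.8 and 222 FPKM with busulfan, 315, 426 and 370.0 FPKM with L.J., and 357, 289 and 344 FPKM in controls. Its busulfan + L.J. libraries were above all others and its busulfan libraries below all others, and the interaction was 0.92 (SE 0.19, 95% interval 0.49 to 1.35, limma adjusted p = 0.192). In busulfan-treated mice Igfbp7 rose with L.J., by 1.08 (limma adjusted p = 0.0152). Pecam1, the general endothelial adhesion molecule, had 0.48 (SE 0.17), with L.J. differences of 0.23 with busulfan and -0.25 without it.

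Col14a1, a collagen of fibril surfaces, stood at 27.5, 29.5 and 26.4 FPKM with busulfan and L.J., 11.5, 14.3 and 15.5 FPKM with busulfan, 19.4, 20.5 and 21.1 FPKM with L.J., and 17.9, 19.2 and 22.8 FPKM in controls. Its busulfan libraries were below all others and its busulfan + L.J. libraries above all others. The interaction of Col14a1 was 0.95 (SE 0.17, 95% interval 0.57 to 1.32, limma adjusted p = 0.129), and it rose with L.J. in busulfan-treated mice, by 0.97 (limma adjusted p = 0.0135). Sema3d, a secreted semaphorin, averaged 6.41 ± 0.26 FPKM with busulfan and L.J., 2.3 ± 0.44 FPKM with busulfan, 3.62 ± 1.06 FPKM with L.J. and 4.06 ± 0.72 FPKM in controls (mean ± SD, n = 3 each), with an interaction of 1.32 (SE 0.24). Col4a1, a chain of basement membrane collagen, had 0.77 (SE 0.17), and Itga1, an integrin subunit that binds collagen, had 0.76 (SE 0.15). Col1a1, of fibrillar collagen, did not share this size, with -0.02 (95% interval -0.98 to 0.95). Hs6st2, which sulphates heparan sulphate, averaged 17.7 ± 1.45 FPKM with busulfan and L.J., 8.61 ± 1.34 FPKM with busulfan, 11.8 ± 1.33 FPKM with L.J. and 12.8 ± 1.38 FPKM in controls (mean ± SD, n = 3 each), and its interaction was 1.08 (SE 0.18). Hs3st3a1, another heparan sulphate sulphotransferase, had 1.03 (SE 0.21). Edaradd, an adaptor of the ectodysplasin receptor, stood at 4.14, 5.12 and 4.42 FPKM with busulfan and L.J., 2.32, 2.13 and 2.23 FPKM with busulfan, 3.7, 3.95 and 3.67 FPKM with L.J., and 5.49, 4.36 and 3.9 FPKM in controls, with all busulfan libraries below all others, and an interaction of 1.00 (SE 0.17, 95% interval 0.63 to 1.37, limma adjusted p = 0.129).

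The endothelial and stromal medians differed between settings. Without the 3 libraries, 29 of 31 endothelial genes were positive, 19 had an unadjusted p below 0.05 and the median was 0.57, and 30 of 38 stromal genes were positive, 15 had an unadjusted p below 0.05 and the median was 0.51. With the acinar covariate the medians were 0.63 and 0.50, and without busulfan replicate 1 and L.J. replicate 3 alone they were 0.45 and 0.25. Without busulfan replicate 3 they were 0.33 and 0.17, and without control replicate 3 the stromal median was also 0.17. The endothelial score was 3.47, 3.32 and 3.60 in busulfan + L.J. libraries, 3.12, 3.23 and 2.79 in busulfan libraries, 3.31, 3.36 and 3.20 in L.J. libraries and 3.39, 3.18 and 3.39 in control libraries, with busulfan replicate 3 the lowest.

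**Figure D4:**
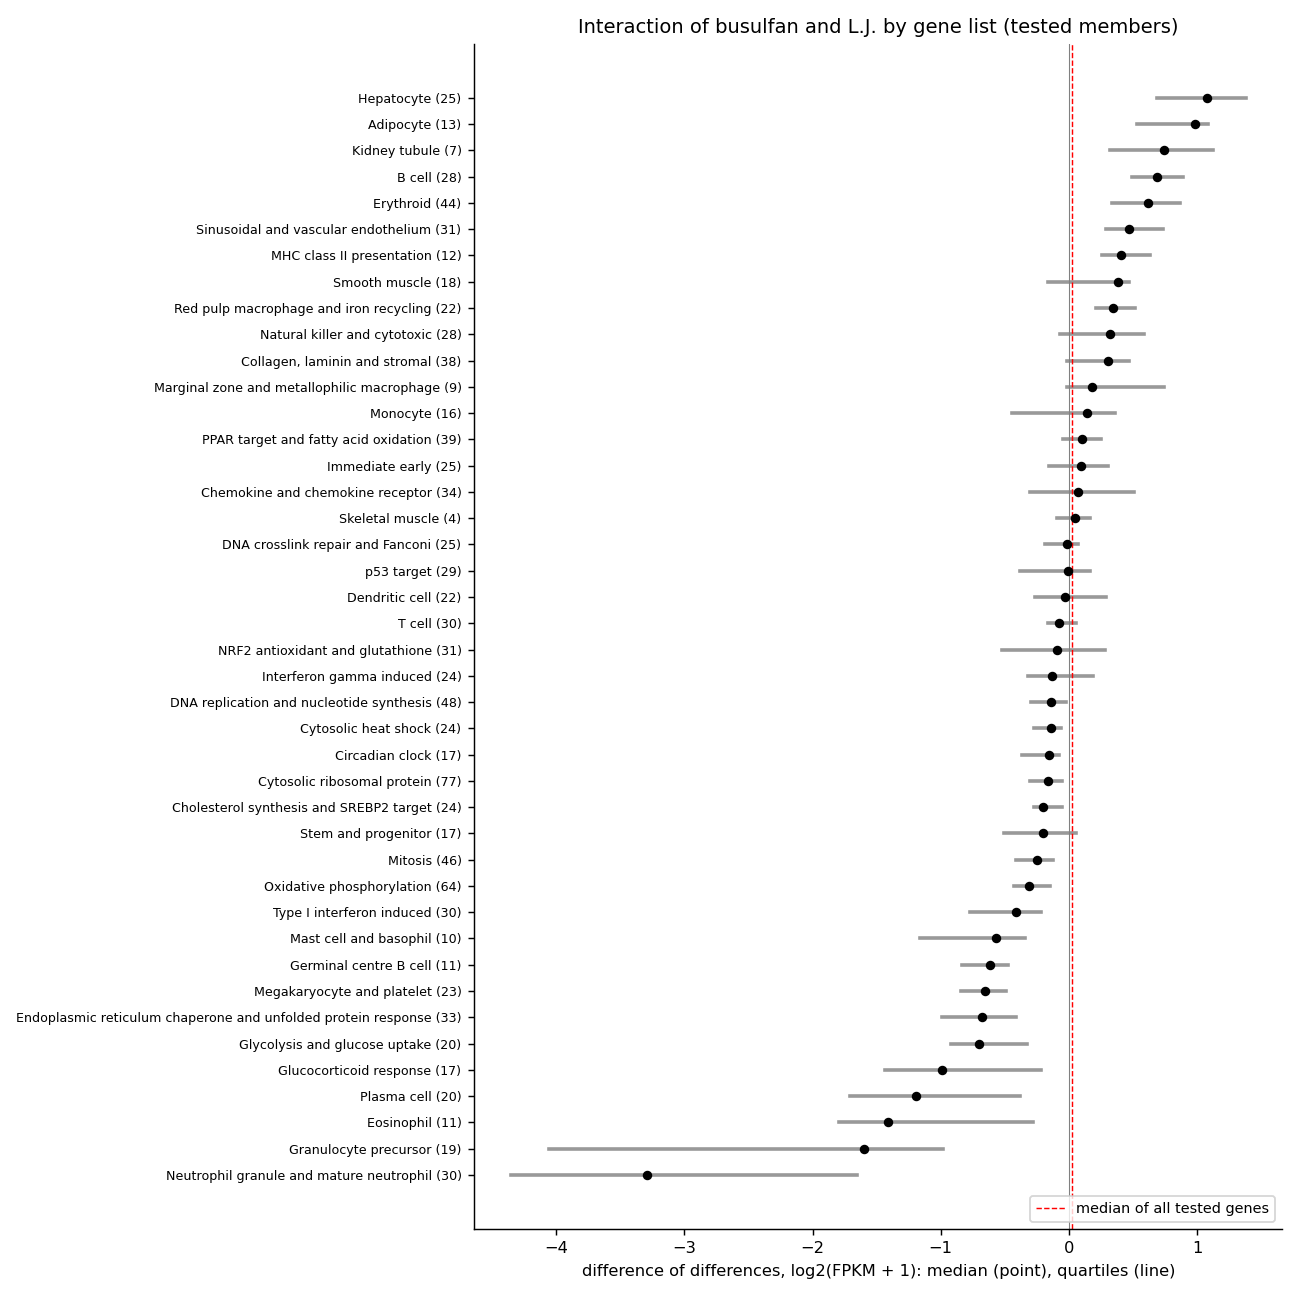
Median interaction of 42 gene lists (points) with the quartiles of their members (lines), on the log2(FPKM + 1) scale, with the number of tested members in brackets and the median of all tested genes as a dashed line. The acinar and islet lists are left out because of their scale. Granulocyte, plasma cell and ER lists lie on the negative side, and B cell, erythroid and endothelial lists on the positive side.

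B cell genes had a positive interaction in 27 of 28 tested members, 16 at an unadjusted p below 0.05, with a median of 0.69. Cd79b, a signalling chain of the B cell receptor, stood at 415, 302 and 387 FPKM with busulfan and L.J., 191, 123 and 239 FPKM with busulfan, 277, 284 and 293 FPKM with L.J., and 323, 260.4 and 255 FPKM in controls. Its busulfan libraries were below all others. The interaction of Cd79b was 1.00 (SE 0.31, 95% interval 0.33 to 1.67, limma adjusted p = 0.261), and in busulfan-treated mice it rose with L.J., by 1.03 (limma adjusted p = 0.0441). Ms4a1 (CD20) had 1.16 (SE 0.29) and Fcrla, an Fc receptor-like protein of B cells, 1.17 (SE 0.27). In these 3 genes busulfan replicate 3, the busulfan library of lowest acinar level, was the highest of its group. In L.J. replicate 3, the L.J. library of highest acinar level, Cd79b was the highest of its group, and Ms4a1 and Fcrla were the lowest. The B cell median was 0.17 without the 3 libraries, with 1 gene at an unadjusted p below 0.05, and 0.11 with the covariate, and the part of the acinar level was not tested. MHC class II genes were positive in 10 of 12, 3 at an unadjusted p below 0.05, with a median of 0.41, which was 0.04 without the 3 libraries, -0.05 with the covariate and 0.63 without busulfan replicate 3.

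T cell genes had no direction that held across settings. Of 30 tested, 10 were positive and 20 negative, 1 negative one at an unadjusted p below 0.05, with a median of -0.08. In the fit without the 3 libraries 28 of 30 were negative, with a median of -0.55, and with the covariate 26 of 30, with a median of -0.40. Without busulfan replicate 3 the count was 23 of 30 positive, with a median of 0.24, and the T cell median was also above 0 without busulfan + L.J. replicate 2 (0.15) and control replicate 1 (0.05). Cd3e, of the T cell receptor complex, had -0.23 (95% interval -1.32 to 0.87). Natural killer genes were positive in 18 of 28, 4 at an unadjusted p below 0.05, with a median of 0.32 that was -0.08 without the 3 libraries and -0.16 with the covariate. It was 0.11 without L.J. replicate 1 and 0.15 without either busulfan replicate 1 or 2. Klrb1c (NK1.1) stood at 3.53, 3.51 and 2.1 FPKM with busulfan and L.J., 0.85, 0.39 and 1.51 FPKM with busulfan, 3.79, 4.45 and 2.97 FPKM with L.J., and 3.43, 3.04 and 2.66 FPKM in controls. Its busulfan libraries were the low group, and L.J. raised it in busulfan-treated mice by 1.10 (limma adjusted p = 0.0409), while the interaction was 0.88 (SE 0.31, 95% interval 0.19 to 1.57, limma adjusted p = 0.326).

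Erythroid genes were positive in 40 of 44, 3 at an unadjusted p below 0.05, with a median of 0.62. Alas2, the erythroid enzyme that starts haem synthesis, stood at 380.4, 656 and 373 FPKM with busulfan and L.J., 126, 272 and 289 FPKM with busulfan, 272, 339 and 339.6 FPKM with L.J., and 293, 338 and 195 FPKM in controls. The busulfan + L.J. libraries were above all others, with an interaction of 0.84 (95% interval -0.19 to 1.86). The erythroid median was 0.27 without the 3 libraries and -0.38 with the covariate, so its direction depended on the acinar covariate. It was 0.36 without busulfan + L.J. replicate 2, 0.16 without busulfan replicate 1 and 0.97 without busulfan replicate 2. Red pulp macrophage and iron recycling genes were positive in 20 of 22, 3 at an unadjusted p below 0.05, with a median of 0.35. The red pulp median was 0.53 without the 3 libraries and 0.30 with the covariate. With library weights it was 0.08, and 15 of 22 were positive. Trf, transferrin, had 0.62 (SE 0.21), and Spic, the factor of red pulp macrophages, 0.36 (95% interval -0.28 to 1.01). With library weights Trf had 0.35 and Spic 0.06. Megakaryocyte and platelet genes were negative in all 23 tested members, 2 of them at an unadjusted p below 0.05, with a median of -0.66. The L.J. group was the farthest from the others in 16 of the 23, beside 10.7% of all tested genes. The megakaryocyte median was -0.28 without the 3 libraries, -0.25 with the covariate, where 20 of 23 were negative, and -0.38 without busulfan replicate 1. Ppbp, a platelet chemokine, stood at 384, 268 and 269 FPKM with busulfan and L.J., 589, 516 and 409 FPKM with busulfan, 832, 951 and 448 FPKM with L.J., and 749.7, 483 and 517 FPKM in controls, with an interaction of -1.03 (SE 0.40).

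In a further set of genes it was the control group that stood apart. Slc34a1, the phosphate transporter of kidney tubules, lies at chr13:55399622-55414695 and stood at 0.6, 0.24 and 0.4 FPKM with busulfan and L.J., 0.47, 0.41 and 0.46 FPKM with busulfan, 0.4, 0.22 and 0.46 FPKM with L.J., and 4.38, 2.69 and 2.21 FPKM in controls. All 3 control libraries were above the 9 libraries of the other groups. The interaction of Slc34a1 was 1.52 (SE 0.27, 95% interval 0.92 to 2.12, limma adjusted p = 0.129), with L.J. differences of -0.04 with busulfan and -1.56 without it (limma adjusted p = 0.0342 without busulfan). Of 23 kidney tubule genes 7 could be tested. Of these 6 were positive, 4 at an unadjusted p below 0.05, with a median of 0.74. The 1 negative gene also had an unadjusted p below 0.05. Slc34a1 reached a mean of 1 FPKM only in controls. A gene taken up only through its controls is inclined to a positive value, so these counts are not evidence of a direction. The kidney median was 1.03 without the 3 libraries and 1.04 with the covariate.

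Hepatocyte genes were positive in 24 of 25 tested members, 16 at an unadjusted p below 0.05, with a median of 1.08, which was 1.29 without the 3 libraries, 1.18 with the covariate and 0.63 without control replicate 2. The control group was the farthest from the others in 20 of 25, beside 30.3% of all tested genes. How many hepatocyte genes were taken up only through their controls is not given here. Such genes are likewise inclined to a positive value, so these counts are not evidence of a direction. Alb, albumin, stood at 1.96, 1.79 and 2.28 FPKM with busulfan and L.J., 2.34, 1.74 and 1.0 FPKM with busulfan, 4.6, 3.22 and 5.73 FPKM with L.J., and 7.27, 34.2 and 14.7 FPKM in controls. All 3 control libraries were above all others, and control replicate 2 was the highest. The interaction of Alb was 1.80 (SE 0.58, 95% interval 0.53 to 3.08, limma adjusted p = 0.278). In these liver and kidney genes the difference of differences has the same sign as in the endothelial genes, yet the busulfan + L.J. and busulfan groups were alike in level, with a median L.J. difference of 0.00 with busulfan and -1.10 without it in the hepatocyte list. Whether these transcripts were in spleen cells or came with tissue around the spleen was not tested.

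Angptl4 was called higher with L.J. both with and without busulfan. Angptl4, a PPAR target and a secreted inhibitor of lipoprotein lipase, stood at 9.44, 10.4 and 9.84 FPKM with busulfan and L.J., 2.27, 3.05 and 3.03 FPKM with busulfan, 7.2, 8.5 and 8.0 FPKM with L.J., and 4.21, 2.96 and 3.84 FPKM in controls. It rose with L.J. by 1.53 with busulfan (limma adjusted p = 0.00135) and by 0.94 without it (limma adjusted p = 0.0453). The interaction of Angptl4 was 0.59 (SE 0.18, 95% interval 0.19 to 0.99, limma adjusted p = 0.261). Cpt1a, which admits fatty acids to mitochondria, stood at 29.1, 26.98 and 31.4 FPKM with busulfan and L.J., 13.02, 12.2 and 14.7 FPKM with busulfan, 21.4, 23.1 and 23.8 FPKM with L.J., and 16.7, 14.4 and 14.7 FPKM in controls. The L.J. difference of Cpt1a was 1.08 with busulfan (limma adjusted p = 0.00192) and 0.55 without it (limma adjusted p = 0.258), and the interaction was 0.53 (SE 0.14, 95% interval 0.22 to 0.84, limma adjusted p = 0.221). Cd36, a fatty acid translocase that endothelium and red pulp also express, had L.J. differences of 0.89 with busulfan and 0.01 without it, and an interaction of 0.88 (SE 0.21). Over 39 PPAR target and fatty acid oxidation genes, 26 were positive, 4 at an unadjusted p below 0.05, with a median of 0.10, which was 0.22 without the 3 libraries and 0.32 with the covariate.

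Type I interferon induced genes were higher with L.J. on both sides in their medians, by 0.44 with busulfan and by 0.94 without it, and no member was called in either. Their interaction was negative in 27 of 30 members, 0 at an unadjusted p below 0.05, with a median of -0.42. Irf7, the amplifier of the interferon response, stood at 41.8, 48.1 and 38.8 FPKM with busulfan and L.J., 26.3, 13.1 and 46.3 FPKM with busulfan, 27.99, 53.6 and 127 FPKM with L.J., and 21.3, 11.9 and 16.2 FPKM in controls. L.J. replicate 3 was the highest library, and the interaction was -1.05 (95% interval -2.63 to 0.54). Without the 3 libraries of highest acinar level, which include it, all 30 were negative, 18 at an unadjusted p below 0.05, with a median of -0.70, and with the covariate the median was -0.74. Without busulfan replicate 3, by contrast, 22 of 30 were negative, 0 at an unadjusted p below 0.05, with a median of -0.08. The interferon median was -0.07 without L.J. replicate 3, -0.75 without L.J. replicate 1 and -0.69 without busulfan replicate 2.

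Genes of the DNA damage response, which alkylating agents set off, were spread over both directions. Of 29 p53 targets 14 were positive and 15 negative, 2 of each at an unadjusted p below 0.05, with a median of -0.01. Cdkn1a (p21), which p53 induces to halt the cell cycle, stood at 16.7, 16.1 and 14.7 FPKM with busulfan and L.J., 24.2, 22.3 and 20.1 FPKM with busulfan, 17.4, 11.03 and 13.04 FPKM with L.J., and 14.99, 12.4 and 17.7 FPKM in controls. The busulfan libraries were the highest group, and the interaction was -0.34 (95% interval -0.84 to 0.16). Of 25 crosslink repair and Fanconi genes 12 were positive and 13 negative, 2 negative ones at an unadjusted p below 0.05, with a median of -0.01. Fancg had -0.53 (SE 0.22). The p53 and repair medians stayed within -0.09 and 0.09 without the 3 libraries, with the covariate and with each library left out. With library weights they were -0.02 and -0.14. These values do not show that busulfan and L.J. added up for these genes, only that a departure from it was not resolved.

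**Figure D5:**
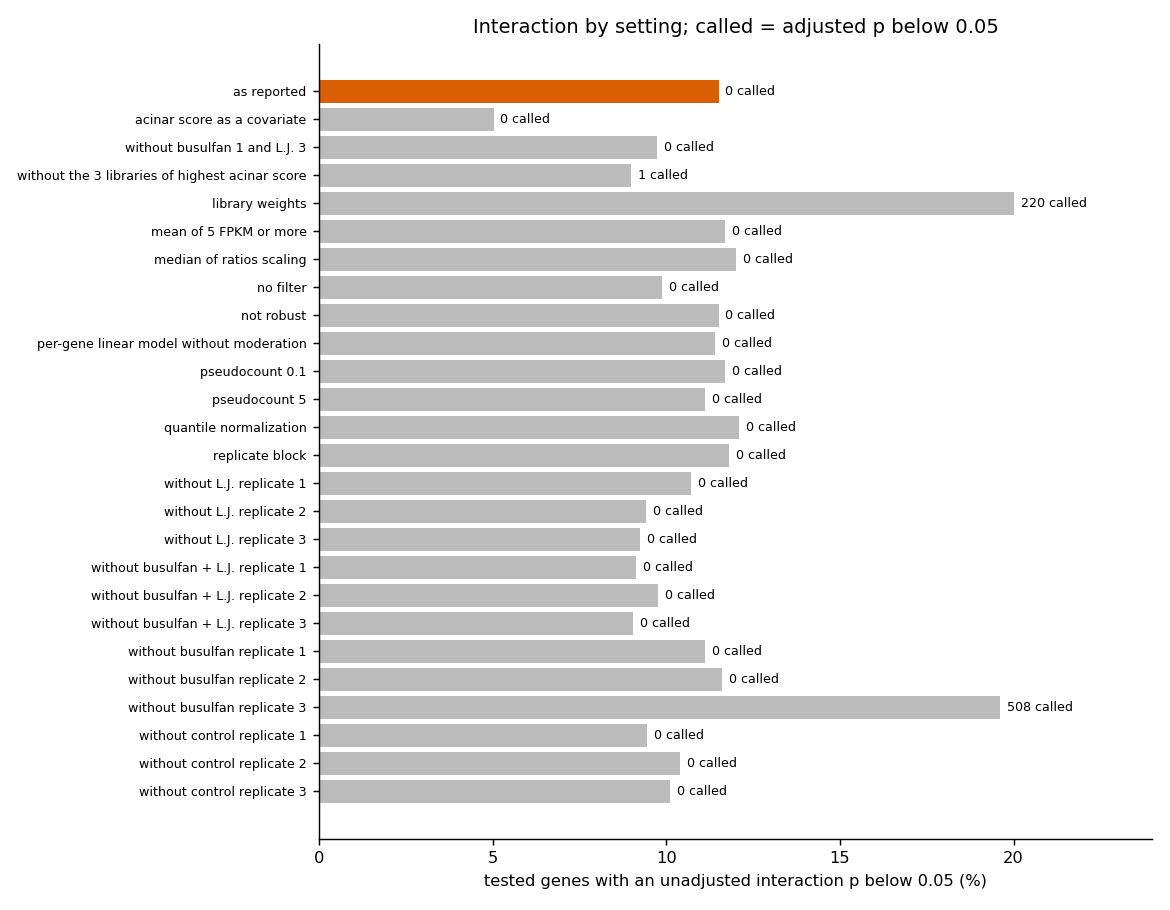
Share of tested genes with an unadjusted interaction p below 0.05 (bars, in %) and number of genes called at an adjusted p below 0.05 (labels) under each setting. The 2 settings with many calls are without busulfan replicate 3, with 508, and library weights, with 220. Without the 3 libraries of highest acinar level 1 gene was called, and under every other setting drawn 0.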

How the data were processed

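The authors deposited 1 table of FPKM values, 21004 genes by 12 libraries, with 2 decimals, per the file headers. Their processing notes name Bowtie 0.12.2 and the build mm10 without their roles, per the submitters' processing notes. Not given in the sources used here: counter, annotation and strand setting. The depth is unknown, since FPKM was given without read numbers, so no intervals of counting error are given. FPKM is scaled by the library total, so 1 very abundant set of transcripts lowers all other values of its library. FPKM sums ran from 511876 to 580364 per library, 12249 to 13129 genes reached 1 FPKM, and correlations within groups ran from 0.915 to 0.986.

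All columns were matched to samples by name. Symbols of 26 genes that a spreadsheet had turned into dates were restored, and 99.2% of gene numbers were found in RefSeq (GRCm38.p6, the assembly of mm10), the source of coordinates and promoter windows. Near-identical genes, overlapping genes and antisense partners may share reads.

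Genes with a mean of 1 FPKM or more in any group were fitted as log2(FPKM + 1), which understates differences of weakly expressed genes, by limma-trend with robust moderation and 1 mean per group (limma 3.58.1 under R 4.3.3). The interaction was (busulfan + L.J. minus busulfan) minus (L.J. minus control), adjusted by Benjamini-Hochberg over all tested genes at a threshold of 0.05. Simple differences came from the same fit. A gene that passed the filter only through a group where it is high is inclined to 1 sign of the interaction. The 2 L.J. differences share no library. The code was tested on simulated data. A list is described by counts and medians without a test, and its score averages log2(FPKM + 1) over its tested members. Members of 44 lists and all rules were chosen with earlier results of these data known. Named were the 24 genes of smallest p apart from predicted genes and receptor segments, 3 members of smallest p per list, and 22 fixed markers, not all of which are printed. Some genes that these rules picked are not reported here. Calr, Hspa5, Xbp1, Irf7, Ppbp and Alg12, where no rule picked them, were chosen after their values were seen. Alternatives were other normalizations, filters, pseudocounts, thresholds, library weights, the replicate block, each library left out, and 3 that concern acinar RNA and were added after seeing the data. Tables and plots used Python 3.11.15, pandas 2.3.3, numpy 2.4.6 and matplotlib 3.10.9.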

Additional observations from a re-analysis of the deposited data

How the results depend on the processing

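The count of 0 called genes held under 2 normalizations, 2 filters, 2 pseudocounts, the fit without the robust option and the per-gene model. It also held with 11 of the 12 libraries left out in turn. A further fold limit of 1 on the log2 scale could only leave a count of 0 as it was. With each library left out, the count ran from 0 to 508 in all, 0 to 160 higher and 0 to 348 lower, the 508 coming without busulfan replicate 3. Library weights gave 220 calls, 107 higher and 113 lower, and an adjusted p threshold of 0.1 gave 3, all lower. Without the 3 libraries of highest acinar level the count was 1, which was lower. The replicate number as a block gave 0 calls, with 1554 genes at an unadjusted p below 0.05. Same-numbered libraries correlated at -0.31 to 0.33 in their deviations from group means, 8 of 18 pairs over 0.1, so the numbers were not taken as pairs, and 5 of 12 libraries correlated best with their own number. Genes at an unadjusted p below 0.05 ranged from 660 with the acinar covariate to 2626 with library weights, against 1506, and from 1189 to 2569 with 1 library left out.

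Of the genes whose interaction is given here, 7 changed sign under an alternative. Cd3e ranged from -0.49 to 0.13 with 1 library left out, and was 0.08 without busulfan + L.J. replicate 2 and 0.13 without busulfan replicate 3. Alas2 was -0.18 with the acinar covariate. Col1a1 was 0.05 with library weights, 0.01 after quantile normalization, and ranged from -0.31 to 0.29 with 1 library left out, above 0 without L.J. replicate 1 (0.29), busulfan + L.J. replicate 1 (0.13), busulfan replicates 2 (0.03) and 3 (0.14) and control replicates 1 (0.02) and 2 (0.18). Mki67 ranged from -0.07 to 0.55 with 1 library left out, and was -0.43 with the acinar covariate, -0.10 with library weights, -0.07 without busulfan replicate 1 and -0.07 without busulfan replicate 1 and L.J. replicate 3. Hspa1b ranged from -0.79 to 0.21, the highest being without control replicate 1. Alg12 ranged from -0.17 to 0.16 with 1 library left out and was 0.05 with library weights, the values above 0 being without L.J. replicate 1 (0.16), busulfan + L.J. replicate 2 (0.06), busulfan replicate 3 (0.06) and control replicate 2 (0.08). Ero1lb ranged from -0.36 to 0.01 with 1 library left out, the 0.01 without busulfan replicate 1, and was 0.35 with the acinar covariate, 0.10 without busulfan replicate 1 and L.J. replicate 3, 0.01 without the 3 libraries of highest acinar level and 0.01 with library weights. The cause of these moves was not tested. With 3 libraries per group the median standard error was 0.22, the unadjusted 95% interval reaches farther than that to each side, and values as large as that of Mpo (-4.41, SE 1.44) did not pass over all genes.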

Other observations

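Chemokine and chemokine receptor genes, not described above, included members on both sides. Of 34 tested, 19 had a positive interaction and 15 a negative one, 3 and 2 at an unadjusted p below 0.05, with a median of 0.07, which was 0.00 without the 3 libraries and -0.13 with the covariate. Ackr2, a receptor that takes up and degrades inflammatory chemokines, stood at 8.33, 12.1 and 11.4 FPKM with busulfan and L.J., 4.75, 6.9 and 7.35 FPKM with busulfan, 8.4, 8.63 and 6.98 FPKM with L.J., and 11.9, 10.7 and 9.14 FPKM in controls, with an interaction of 1.03 (SE 0.24, 95% interval 0.49 to 1.56, limma adjusted p = 0.192). Ackr3, which removes CXCL12, had 1.25 (SE 0.32). Cxcr2, the receptor by which neutrophils follow chemokines, stood at 14.5, 15.4 and 15.4 FPKM with busulfan and L.J., 39.4, 38.3 and 21.4 FPKM with busulfan, 14.9, 17.8 and 15.3 FPKM with L.J., and 19.5, 18.1 and 17.3 FPKM in controls. Its busulfan libraries were above all others, and it fell with L.J. in busulfan-treated mice, by 1.03 (limma adjusted p = 0.0377), with an interaction of -0.84 (SE 0.26) that was -0.32 without the 3 libraries of highest acinar level.

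Of 17 circadian clock genes 14 were negative and 3 positive, 1 of each at an unadjusted p below 0.05, with a median of -0.15, which was 0.06 without the 3 libraries and 0.24 with the covariate. Arntl (BMAL1), the activator of the clock, stood at 9.52, 7.64 and 8.01 FPKM with busulfan and L.J., 4.47, 4.03 and 6.3 FPKM with busulfan, 6.21, 7.22 and 6.47 FPKM with L.J., and 6.8, 7.18 and 6.83 FPKM in controls, with an interaction of 0.73 (SE 0.20, 95% interval 0.30 to 1.16, limma adjusted p = 0.221) that was 0.40 without the 3 libraries, and it rose with L.J. in busulfan-treated mice, by 0.68 (limma adjusted p = 0.043). The labels give no time of day of collection. NRF2 and glutathione genes were positive in 14 of 31, with a median of -0.10 that was 0.35 without the 3 libraries and 0.29 with the covariate. Immediate early genes were positive in 14 of 25 (median 0.09), interferon gamma induced genes in 9 of 24 (median -0.13), cytosolic heat shock genes in 5 of 24 (median -0.14) and cholesterol synthesis genes in 3 of 24 (median -0.20). Among cell types, dendritic cell genes were positive in 11 of 22 (median -0.03), monocyte genes in 10 of 16 (median 0.14), marginal zone macrophage genes in 6 of 9 (median 0.18), stem and progenitor genes in 5 of 17 (median -0.20) and mast cell and basophil genes in 1 of 10 (median -0.57). Among other tissues, adipocyte genes were positive in 11 of 13 (median 0.98), skeletal muscle genes in 3 of 4 (median 0.05) and pancreatic islet genes in 1 of 7 (median -1.66). Only 7 of 14 islet genes could be tested. Islet genes that passed the filter only through the busulfan and L.J. groups are inclined to a negative value. The islet count is therefore not evidence of a direction. In the fit without the 3 libraries of highest acinar level, the medians of the heat shock (-0.42), interferon gamma (-0.39), dendritic cell (-0.21) and marginal zone macrophage (0.40) genes lay farther from 0. Those of the stem and progenitor (0.05) and skeletal muscle (-0.15) genes had the other sign, and those of the mast cell (-0.13), cholesterol (-0.03) and islet (-0.10) genes lay nearer to 0. With the acinar covariate the islet median was 0.99.

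The insulin gene Ins2, a marker of islets, was listed at 0 in all busulfan + L.J. libraries and in all controls, while it stood at 273, 20.1 and 3.16 FPKM with busulfan and at 3.72, 0.65 and 26.5 FPKM with L.J., with the reservation that Ins1 may share its reads. Its order over the 6 libraries with a value above 0 was that of their acinar share of the FPKM sum, while busulfan + L.J. replicate 3, listed at 0, had a higher acinar share than L.J. replicate 2.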
